A study of Homo sapiens with 9 samples.

Results

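The 672 regions described here are stretches downstream of annotated genes, 9000 to under 18000 bases long, in which the study looked for RNA that had run past the end of its gene. They are the middle-length regions of the 2541 listed in the authors' deposited table of UBE3D knockout versus wild-type cells. The rule took regions off chromosome 19 whose host gene is named like a protein-coding gene or pseudogene, leaving out hosts named as miRNAs, small nuclear or nucleolar RNAs, long noncoding RNAs or antisense genes. It used length, chromosome and name, and read no fold or level directly. Region lengths come from the authors' region finding, which is not described, so the rule may not be independent of the reads. The authors' deposited table of addback versus knockout cells lists 633 of the same regions among its 2396. The 39 absent from it have base means, the normalized count averaged over the libraries of a comparison, of at most 0.324 in the knockout versus wild-type table.

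The libraries hold poly(A)-selected RNA of HEK293, a line derived from human embryonic kidney. The groups are addback cells (UBE3D knocked out and then put back), KO cells (UBE3D knocked out by CRISPR/Cas9) and WT cells (wild type for UBE3D), with 3 libraries each. The labels give no clone, no vector or promoter for the addback and no number of cultures, and mark every sample as pooled. The p-values therefore measure the spread between libraries, which may be technical.

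UBE3D is an E3 ubiquitin ligase, an enzyme that attaches ubiquitin to other proteins. The study ties it to CPSF3, also called CPSF73, the endonuclease that cuts a nascent transcript downstream of a hexamer such as AAUAAA, after which the new end receives its poly(A) tail. RNA polymerase II keeps transcribing beyond the cut until it is released, and the uncapped RNA behind it is degraded by the exonuclease XRN2. Where cutting or release comes late, transcripts extend into the sequence behind the gene, and such stretches are known as downstream-of-gene or readthrough regions.

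The poly(A) signals at which the hosts end are shown for 6 hosts whose regions moved in opposite directions in both comparisons, since these are the sites that transcripts reaching the region have passed. Each line gives at most 30 bases of the host's annotated transcript end in GENCODE v29 (hg38), from 4 bases before the hexamer, with the hexamer in capitals.
RPL14 (chr3:40462346-40462368, plus strand): ttatAATAAAcattaaataatca
XRCC5 (chr2:216206257-216206286, plus strand): taacATTAAAggcataaatgactcatctct
SOX4 (chr6:21598587-21598616, plus strand): aggaAATAAAatcagctggaactgaaccct
ITGB1 (chr10:32900319-32900344, minus strand): atagATTAAAgaagttgaggaaaagc
VPS18 (chr15:40903952-40903975, plus strand): gagcATTAAActgtctgcactgca
TXNL1 (chr18:56602826-56602855, minus strand): tgtaAATAAAagtcaccacttttgccaagc
The 6 ends hold the canonical hexamer AATAAA or its most common variant ATTAAA, 3 each. Each window is placed by its hexamer, so an end with neither hexamer could not be shown. That all 6 ends hold a hexamer therefore follows from how they were chosen. The remaining members named below for calls in opposite directions have no window here. The 6 ends thus do not show how common either hexamer is among such members. Over the 456 members whose start lies within 10 bases of an annotated transcript end of the host, the last 50 bases held AATAAA in 58.8%, ATTAAA without it in 14.3% and neither in 27.0%. Over the 1672 regions of all kinds with such an end the shares were 57.8%, 15% and 27.3%. Among matched members higher in KO than WT in the authors' deposited table, 25% had neither hexamer (144 regions), against 36.7% of those lower (90 regions) and 24.0% of those not called (183 regions with a base mean of at least 10). Among those higher in addback than KO in the authors' deposited table the share was 42.6% (54 regions), and among those lower 22.5% (89 regions). These shares were not tested.

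At the far end the members fall into 3 classes. A total of 357 end where no annotated gene begins, and 356 of these have a length that is a multiple of 200 bases. A further 179 run up to the next gene on the host's strand, and 136 stop where a gene on the other strand lies. Member lengths ran from 9000 to 17958 bases with a median of 12205. The median base mean in the authors' deposited KO versus WT table was 237 for regions with no gene at the far end, 399 for regions ending at a gene on the host's strand and 149 for regions ending at a gene on the other strand, or 309 for the 80 of that class with a base mean of at least 10.

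**Figure D1:**
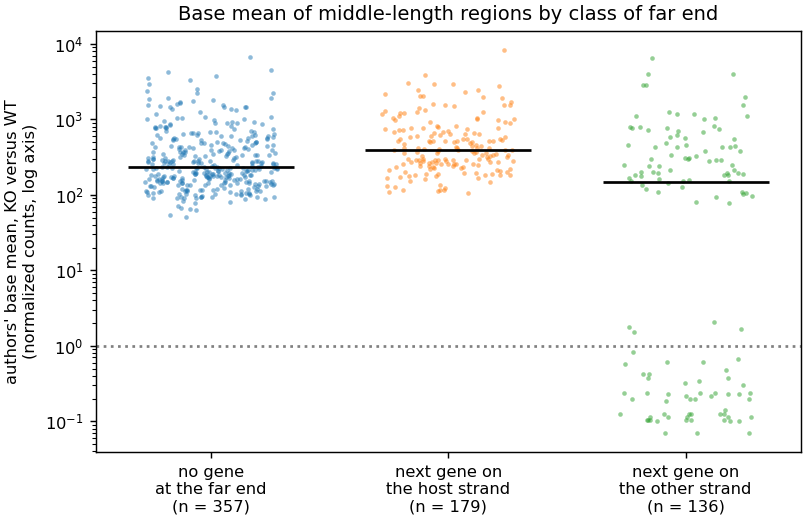
Base mean of each of the 672 regions in the authors' deposited KO versus WT table (log axis), by what lies at the region's far end; each point is a region, the bar is the median of the class and the dotted line is a base mean of 1. The 52 regions under 1 lie in the class that ends at a gene on the other strand, and the other classes start at 50.7.

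All 52 members with a base mean under 1 in the authors' deposited KO versus WT table are in the class that ends at a gene on the other strand. In 12 pairs of regions that include a member, the hosts lie on opposite strands and their regions overlap each other over at least 95% of their length. Base means in these pairs reached at most 2.87 in the authors' deposited table. KLHL20 and CENPL are such a pair, at 0.200 and 0.239, as are MTO1 and EEF1A1, at 0.679 and 0.140. EEF1A1 encodes a translation elongation factor that is abundant in most cells. Leaving aside the 56 members with a base mean under 10, 616 remain, and 50.7 is the lowest base mean among them.

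In KO versus WT, 347 of the 672 members (51.6%) passed the authors' adjusted p of 0.05 in their deposited table, 196 higher and 151 lower in KO. Over all 2541 regions the share was 49.8%, with 24.8% higher and 25% lower. Read against that background, the share of members called is close to that of the whole table. The median log2 fold was 0.07 over the members and 0.00 over all regions. With a base mean of at least 10, the authors' deposited table calls 347 of 616 members (56.3%) and 1265 of 2271 regions (55.7%). Of the shorter regions chosen by the same rule, 298 of 745 were called there, and of the longer ones 333 of 549. Length went with level: median base means there were 122 in the shorter regions, 266 in the members and 609 in the longer ones. The region folds are relative, and how the authors scaled the region table is not given. If it was scaled on its own regions, it cannot show a shift common to all of them.

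With UBE3D put back, 204 of the 633 members listed (32.2%) were called between addback and KO in the authors' deposited table, 90 higher and 114 lower in addback. Over all 2396 regions the share was 34.1%, with 18.6% higher and 15.5% lower. The median log2 fold was -0.05 over the members and 0.00 over all regions. The folds of this table are shrunken towards 0 and those of KO versus WT are not, so their sizes are not on 1 scale. Changes of at least 1 on the log2 scale were few: 36 members in KO versus WT (29 higher, 7 lower) and 9 in addback versus KO (5 higher, 4 lower), in the authors' deposited tables.

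Both comparisons use the KO libraries, so calls of opposite sign are linked by construction. Of the 633 members in both of the authors' deposited tables, 94 were higher in KO than WT and lower in addback than KO, and 71 were lower in KO and higher in addback. Higher in both were 2 members, lower in both was 1, and 250 were called in neither.

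By class of far end, the authors' deposited tables divide as follows. Regions with no gene at the far end had 115 higher and 76 lower members in KO versus WT, and 46 higher and 66 lower in addback versus KO. Regions ending at a gene on the host's strand had 57 higher and 56 lower in KO, then 34 higher and 36 lower in addback. Regions ending at a gene on the other strand had 24 higher and 19 lower in KO, then 10 higher and 12 lower in addback.

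The strongest calls in opposite directions came from hosts of unrelated function. RPL14 encodes a protein of the large ribosomal subunit. Its region (chr3:40462373-40477114, plus strand, 14742 bases) had a log2 fold of 1.34 ± 0.07 (SE) in KO versus WT (adjusted p = 1.4e-80) and -1.09 ± 0.07 in addback versus KO (adjusted p = 9.3e-52), from the authors' deposited tables. RPL14 messenger RNA moved the same way by far less: 409, 391 and 377 scaled CPM in addback, 462, 454 and 452 in KO, and 395, 370 and 359 in WT. Scaled CPM are counts relative to library size, with libraries scaled on genes of little background. The KO libraries lay above the other 6, with a log2 fold of 0.28 ± 0.04 in KO versus WT (edgeR, Benjamini-Hochberg adjusted p = 0.00143) and -0.22 ± 0.04 in addback versus KO (adjusted p = 0.00368).

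XRCC5 encodes Ku80, a subunit of the DNA end-binding complex of double-strand break repair. The XRCC5 region (chr2:216206294-216216890, plus strand, 10597 bases) had log2 folds of 1.05 ± 0.07 in KO versus WT (adjusted p = 3.7e-46) and -1.11 ± 0.07 in addback versus KO (adjusted p = 2.0e-52) in the authors' deposited tables. The gene itself was at 501, 488 and 480 scaled CPM in addback, 535, 547 and 531 in KO, and 584, 555 and 552 in WT. The KO libraries lay between the other groups, with no overlap, so on this scaling host levels did not follow the order of the region. Scaling on all genes moves the median gene by 0.33 in KO versus WT, more than the host's fold, so this order may depend on the scaling. The host's log2 fold was -0.07 ± 0.03 in KO versus WT (edgeR adjusted p = 0.104) and -0.13 ± 0.03 in addback versus KO (adjusted p = 0.00853).

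SOX4 is a transcription factor gene with a single exon. The region behind it (chr6:21598619-21610218, plus strand) had log2 folds of 1.36 ± 0.10 in KO versus WT (adjusted p = 7.3e-37) and -1.17 ± 0.12 in addback versus KO (adjusted p = 1.1e-24) in the authors' deposited tables. SOX4 was at 408, 404 and 391 scaled CPM in addback, 407, 397 and 432 in KO, and 517, 462 and 467 in WT. Its log2 fold of -0.23 ± 0.05 in KO versus WT (edgeR adjusted p = 0.00461) turned to 0.09 when libraries were scaled on all genes. In addback versus KO the SOX4 host was at -0.04 ± 0.05 (edgeR adjusted p = 0.533). ITGB1 encodes the integrin subunit beta 1, a receptor for extracellular matrix. Its region had log2 folds of 0.92 ± 0.10 in KO versus WT and -0.97 ± 0.11 in addback versus KO in the authors' deposited tables (adjusted p = 4.1e-18 and 1.0e-18). ITGB1 was at 378, 361 and 386 scaled CPM in addback, 427, 482 and 436 in KO, and 411, 401 and 403 in WT. The ITGB1 host was called in the direction of its region in both comparisons, by less. Its log2 folds were 0.15 ± 0.05 in KO versus WT (edgeR adjusted p = 0.025, or 0.069 without KO 2) and -0.26 ± 0.05 in addback versus KO (adjusted p = 0.00297).

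SRSF1 encodes a splicing factor of the serine- and arginine-rich family, and its region has the highest base mean of all members, 8213 in the authors' deposited KO versus WT table. It had log2 folds of 0.72 ± 0.06 in KO versus WT (adjusted p = 3.7e-33) and -0.41 ± 0.06 in addback versus KO (adjusted p = 4.7e-12) there. The host was at 503, 467 and 474 scaled CPM in addback, 534, 533 and 544 in KO, and 536, 504 and 496 in WT, and KO and WT overlapped. The SRSF1 host's log2 fold in KO versus WT was 0.07 ± 0.04 (edgeR adjusted p = 0.163). It was called at 0.39 (adjusted p = 0.0281) with libraries scaled on all genes, and at 0.10 (adjusted p = 0.0418) without WT 1. In addback versus KO the SRSF1 host was called lower, as its region was, at -0.16 ± 0.04 (edgeR adjusted p = 0.0098). BRD9 encodes a bromodomain subunit of a BAF-type chromatin remodeller. The BRD9 region (chr5:850986-863735, minus strand) had log2 folds of 0.67 ± 0.07 in KO versus WT and -0.67 ± 0.07 in addback versus KO in the authors' deposited tables (adjusted p = 3.5e-19 and 9.0e-20). BRD9 messenger RNA ran against its region: 78.5, 78.4 and 79.3 scaled CPM in addback, 57.3, 54.4 and 58.0 in KO, and 63.7, 75.4 and 61.0 in WT. The KO libraries were the lowest 3 of the 9. The host's log2 fold was 0.48 ± 0.07 in addback versus KO (edgeR adjusted p = 0.00215) and -0.24 ± 0.07 in KO versus WT (adjusted p = 0.0193; 0.0692 without KO 2). With libraries scaled on all genes these were 0.17 (adjusted p = 0.176) and 0.09 (adjusted p = 0.484).

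The other 4 members named for opposite calls are VPS18, TXNL1, NKX2-2 and BTN2A3P. VPS18 encodes a subunit of the complexes that tether membranes to lysosomes and TXNL1 a thioredoxin-like protein associated with the proteasome. Their regions had log2 folds of 1.20 ± 0.13 and 1.09 ± 0.11 in KO versus WT, then -0.90 ± 0.13 and -0.78 ± 0.12 in addback versus KO, in the authors' deposited tables. Neither host passed edgeR in KO versus WT: VPS18 -0.19 ± 0.13 (adjusted p = 0.246), TXNL1 0.01 ± 0.04 (adjusted p = 0.77). With libraries scaled on all genes the TXNL1 host was at 0.34 (adjusted p = 0.0217), near that scaling's shift of the median gene. In addback versus KO the TXNL1 host was called lower, as its region was, at -0.12 ± 0.04 (edgeR adjusted p = 0.0408, or 0.135 without KO 1). The VPS18 host was not called there, at 0.12 ± 0.13 (adjusted p = 0.482). NKX2-2, a homeobox transcription factor of neural and endocrine cells, went the other way, with region folds of -0.70 ± 0.08 and 0.58 ± 0.09 in the authors' deposited tables. Its host folds were -0.17 ± 0.19 (edgeR adjusted p = 0.46) and 0.50 ± 0.19 (adjusted p = 0.0451). The second of these was 0.19 (adjusted p = 0.436) with libraries scaled on all genes. BTN2A3P is a pseudogene among the butyrophilin genes. Its region folds of -0.94 ± 0.10 and 0.90 ± 0.11 in the authors' deposited tables stood beside host folds of -1.26 ± 0.26 (edgeR adjusted p = 0.00359) and 1.34 ± 0.26 (adjusted p = 0.00344).

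**Figure D2:**
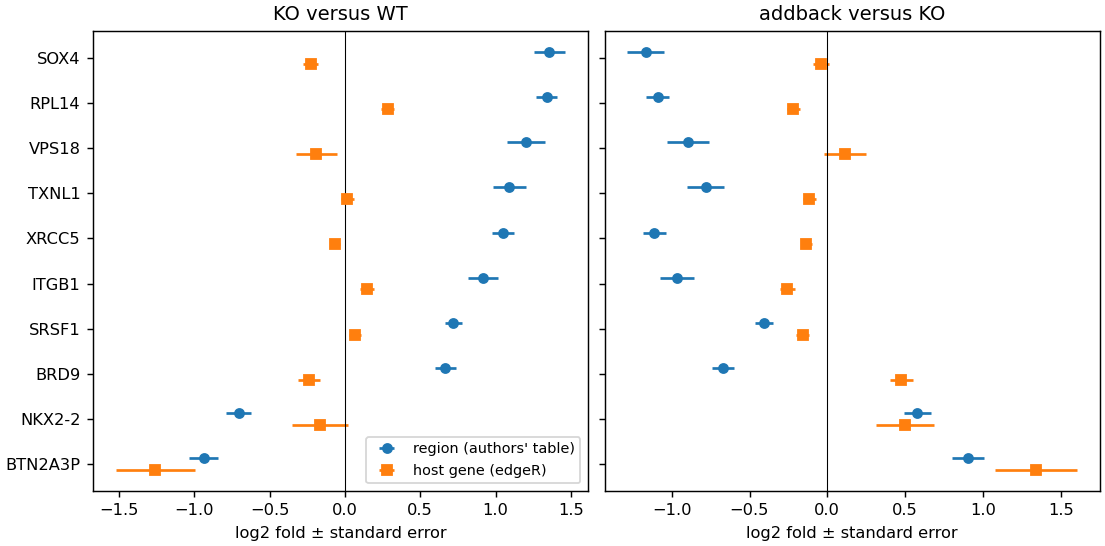
Log2 folds with standard errors of the 10 members named for calls in opposite directions, in KO versus WT (left) and addback versus KO (right); circles are regions from the authors' deposited tables, squares are their host genes from edgeR. The upper 8 regions lie between 0.67 and 1.36 in KO versus WT while their hosts lie between -0.24 and 0.28. Region folds in addback versus KO are shrunken towards 0, and host folds are not.

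Among members with a base mean of at least 10, the EEF1A2 region had the highest KO versus WT fold. EEF1A2 encodes an elongation factor otherwise known from neurons and muscle. The region had a log2 fold of 2.96 ± 0.17 in KO versus WT (adjusted p = 9.8e-66) and -0.67 ± 0.15 in addback versus KO in the authors' deposited tables. Its messenger RNA was at 288, 256 and 265 scaled CPM in addback, 225, 234 and 222 in KO, and 130, 124 and 120 in WT. All addback and KO libraries exceeded all WT libraries, with a log2 fold of 0.86 ± 0.05 in KO versus WT (edgeR adjusted p = 3.5e-05) and 1.11 ± 0.05 in addback versus WT (adjusted p = 6.2e-06). In addback versus KO the EEF1A2 messenger was higher by 0.25 ± 0.05 (edgeR adjusted p = 0.00345), a value that was -0.05 with libraries scaled on all genes.

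HIST1H4H and HIST1H2BD encode core histones. Replication-dependent histone transcripts mostly end in a stem-loop, but the annotated end at which the HIST1H2BD region begins holds the poly(A) signal AATAAA. Their regions were called in KO versus WT with log2 folds of 1.96 ± 0.10 (adjusted p = 7.3e-82) and 1.58 ± 0.11 (adjusted p = 6.0e-47) in the authors' deposited table. In addback versus KO the HIST1H4H region had -0.12 ± 0.09 (adjusted p = 0.329) and the HIST1H2BD region -0.22 ± 0.10 (adjusted p = 0.0498) there. HIST1H2BD was at 9.70, 10.1 and 11.1 scaled CPM in addback, 15.3, 12.3 and 14.6 in KO, and 4.42, 6.72 and 7.56 in WT. The 3 groups did not overlap, and the host's log2 fold in KO versus WT was 1.17 ± 0.23 (edgeR adjusted p = 0.00259). HIST1H4H was at 7.14, 7.36 and 8.6 scaled CPM in addback, 8.56, 6.42 and 8.84 in KO, and 1.59, 4.63 and 4.36 in WT; its log2 fold of 1.17 ± 0.40 in KO versus WT (edgeR adjusted p = 0.0304) lost the call without KO 1 (0.087) or KO 3 (0.0935). The RNA was poly(A)-selected, which retains few transcripts without a tail. ADAM8, which encodes a cell-surface metalloprotease, completes the 10 lowest p-values among higher members, with region folds of 1.61 ± 0.15 and -0.86 ± 0.17 in the authors' deposited tables.

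The 10 members with the lowest p-values among those lower in KO than WT had log2 folds between -1.56 and -0.59 in the authors' deposited table. GPRIN3, a regulator of neurite outgrowth, had region folds of -1.56 ± 0.14 (adjusted p = 3.8e-28) in KO versus WT and 0.99 ± 0.16 in addback versus KO there. Its messenger RNA was at 7.0, 12.5 and 13.4 scaled CPM in addback, 4.72, 3.83 and 4.34 in KO, and 8.2, 15 and 13.5 in WT. KO was lowest in every library, and replicate 1 was the lowest of its group in addback and in WT. The host's folds of -1.51 ± 0.32 (edgeR adjusted p = 0.00376) and 1.35 ± 0.32 (adjusted p = 0.0069) were close to those of the region. The zinc finger genes ZNF354B and ZNF354C had region folds of -0.93 ± 0.09 and -1.06 ± 0.12 in KO versus WT in the authors' deposited table, beside host folds of -1.01 ± 0.15 (edgeR adjusted p = 0.0012) and -1.05 ± 0.24 (adjusted p = 0.00565). UBE2Q2P2, ESPNP, GXYLT2, GTF3C4, VLDLR, NKX2-2 and BTN2A3P make up the rest. Of the 10 hosts, GTF3C4 alone is a low-background gene, as defined next.

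A background of reads differed between the groups. Genes restricted to other tissues, such as odorant receptors, had a count in 94.8 to 95.7% of cases in addback and WT libraries and in 13.9 to 17.1% in KO libraries. The share of counts estimated as such background was 2.79 to 11.7% in addback, 0 in KO and 3.02 to 14.8% in WT. A gene was called low-background where the estimate, made from its coding length, was at most 10% of its level. Its coding sequence also had to make up at least 10% of its exons. A gene with no matched coding length, or a smaller coding share, therefore falls among the other genes whatever its level. Since the background differs between KO and the other groups, a lower level in KO and a smaller background cannot be told apart for genes of low level. How much of each region's value it makes up was not tested, since the deposited region tables hold no values per library.

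Split by this property, the members with a base mean of at least 10 gave unlike counts in the authors' deposited tables. With a low-background host (368 members), 145 were higher and 60 lower in KO versus WT (median 0.18), and 28 higher and 90 lower in addback versus KO (median -0.14). With any other host (248 members), 51 were higher and 91 lower in KO versus WT (median -0.09), and 62 higher and 24 lower in addback versus KO (median 0.07). The surplus of higher calls in KO thus sits among members with low-background hosts, and the surplus of lower calls among the rest. The level of the region also went with its direction in the authors' deposited table. Among the 154 members of lowest base mean (50.7 to 177) 61 were higher and 10 lower in KO versus WT, and among the 154 of highest base mean (605 to 8213) 40 were higher and 73 lower. Base mean and fold come from the same libraries, and in which group a region had to be found is not given. The part of that step in this trend was not tested.

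Hosts as genes were counted with edgeR over all 21994 genes tested. Of 691 host names in the count table, 682 were tested, and 345 differed between KO and WT, 103 higher and 242 lower, where the background over all genes is 61.8% (10.1% higher, 51.7% lower). Between addback and KO 272 hosts were called, 184 higher and 88 lower in addback (181 in all without KO 2), against a background of 56.9% (49.2% higher, 7.69% lower). Between addback and WT 98 were called, 48 higher and 50 lower in addback (52 in all without addback 2 and 65 without addback 1), against 9.17% (4.65% higher, 4.52% lower). The first 2 splits follow the scaling: with factors from all genes, KO versus WT had 268 higher and 87 lower hosts, and addback versus KO 75 higher and 262 lower. That scaling moves the median fold of all genes by 0.33 in KO versus WT, -0.31 in addback versus KO and 0.03 in addback versus WT. Among the 400 low-background hosts the counts were even, at 92 higher and 94 lower in KO versus WT (background over low-background genes 49.8%, with 25.1% higher and 24.7% lower) and 65 higher and 79 lower in addback versus KO (38.2%, with 18% higher and 20.2% lower). In addback versus WT they were 43 higher and 44 lower (22.5%, with 10.9% higher and 11.6% lower). Libraries were scaled on low-background genes, which centres their folds near 0, so near-even counts among these hosts follow largely from the scaling.

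Region and host were then set side by side for the 616 members with a base mean of at least 10, using the authors' deposited region folds and edgeR's host folds. Of the 196 regions higher in KO than WT, 51 had a host called higher, 116 a host not called and 29 a host called lower. Of the 151 regions lower in KO, 102 had a host called lower, 43 a host not called and 6 a host called higher. For low-background hosts, 145 higher regions had 47 hosts higher, 82 not called and 16 lower, and 60 lower regions had 32 hosts lower, 22 not called and 6 higher. Host calls were themselves unequal, 103 higher and 242 lower over all tested hosts, and their directions follow the scaling, as given above. In addback versus KO, 90 higher regions had 56 hosts higher, 31 not called and 3 lower, and 114 lower regions had 33 hosts lower, 70 not called and 11 higher.

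Across members, the authors' deposited region folds and the host folds correlated with Pearson's r of 0.34 and Spearman's rho of 0.48 in KO versus WT (n = 616 members), and 0.47 and 0.40 for low-background hosts (n = 368 members). In addback versus KO the values were 0.50 and 0.48 (n = 616 members), and 0.70 and 0.30 for low-background hosts (n = 368 members), where IFI6, at 4.85 for the region and 6.01 for the host, lies far from the rest. Region and host share the libraries they were counted in, and members are not replicates. The median difference of region minus host was 0.28 in KO versus WT and -0.26 in addback versus KO, or 0.20 and -0.17 for low-background hosts. The level of this difference depends on the scaling of the hosts and on that of the regions, which is not given.

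**Figure D3:**
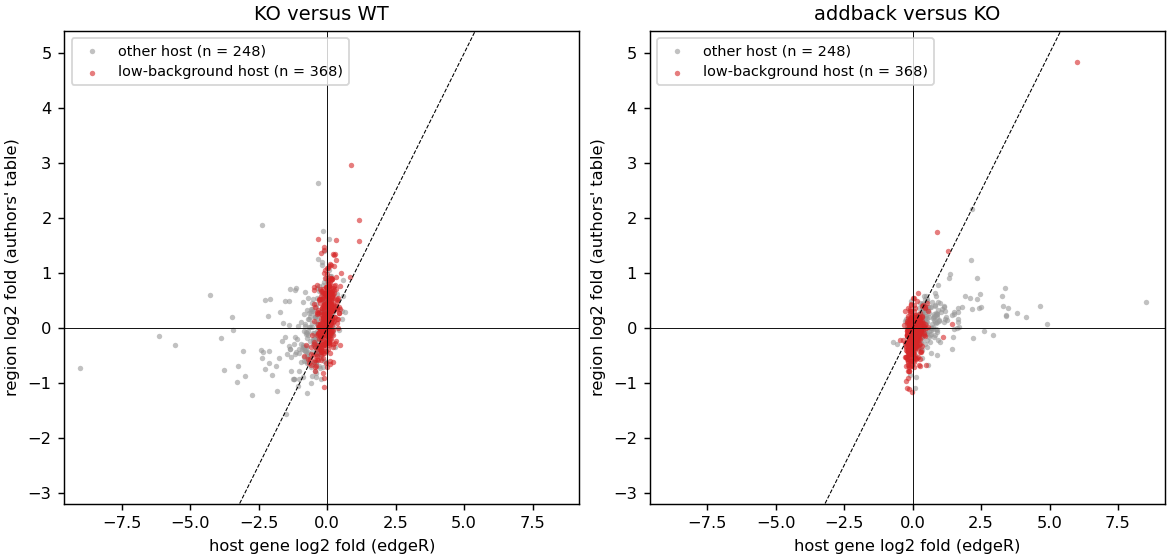
Region log2 fold (authors' deposited tables) against host gene log2 fold (edgeR) for the 616 members with a base mean of at least 10, in KO versus WT (left) and addback versus KO (right); red points have low-background hosts (n = 368), grey points other hosts (n = 248), and the dashed line marks equal folds. Low-background hosts have a median of -0.01 in KO versus WT and 0.01 in addback versus KO, with IFI6 farthest out at 6.01, and grey hosts extend to the left in KO versus WT and to the right in addback versus KO. Libraries were scaled on low-background genes, which sets the median of such genes near 0. Region folds on the right are shrunken towards 0 and host folds are not, so the dashed line there does not mark equal change.

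Members whose host has a GENCODE transcript reaching more than 500 bases into the region could hold reads of an annotated isoform. With a base mean of at least 10 there were 249 such members, of which 65 were higher and 79 lower in KO versus WT (median -0.01), and 42 higher and 34 lower in addback versus KO, in the authors' deposited tables. The other 367 members had 131 higher and 72 lower in KO versus WT (median 0.17), and 48 higher and 80 lower in addback versus KO. Annotated coding bases lie in 53 members, at most 873 bases in one. Among the 47 of these with a base mean of at least 10, 7 were higher and 16 lower in KO versus WT in the authors' deposited table.

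Members on chromosome 9, singled out after their values were seen, leaned to lower folds. Of the 16 there, 14 were lower and 0 higher in KO versus WT, with a median log2 fold of -0.59, in the authors' deposited table. In addback versus KO 1 was higher and 1 lower there. All 16 hosts were called lower in KO than WT by edgeR (median -0.49), where 51.7% of all genes were lower, and 11 of 16 were lower in addback than WT (median -0.44), where 4.52% were. With libraries scaled on all genes 6 and 7 of the 16 were called lower, with medians of -0.16 and -0.42, and 0 higher in either comparison. GTF3C4, a subunit of the RNA polymerase III factor TFIIIC whose messenger's own KO versus WT direction depends on the scaling, had a region fold of -0.59 ± 0.06 in KO versus WT (adjusted p = 5.5e-23) and 0.11 ± 0.06 in addback versus KO (adjusted p = 0.134) in the authors' deposited tables. VLDLR, the receptor for very low density lipoprotein, had -0.94 ± 0.11 (adjusted p = 1.0e-16) and -0.11 ± 0.11 (adjusted p = 0.434) there. VLDLR messenger RNA was at 26.4, 32.9 and 34.0 scaled CPM in addback, 23.7, 21.7 and 24.5 in KO, and 51.8, 54.1 and 55.1 in WT. WT lay above both other groups, with log2 folds of -1.20 ± 0.10 in KO versus WT (edgeR adjusted p = 0.00014) and -0.79 ± 0.10 in addback versus WT (adjusted p = 0.00115). Without chromosome 9, the authors' deposited table calls 196 members higher and 137 lower in KO versus WT. Other chromosomes leaned less: on chromosome 12, 14 members were higher and 2 lower, on chromosome 14, 11 and 3, and on chromosome 7, 4 and 11. The copy number of the lines was not measured here, and its part in these values was not tested.

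**Figure D4:**
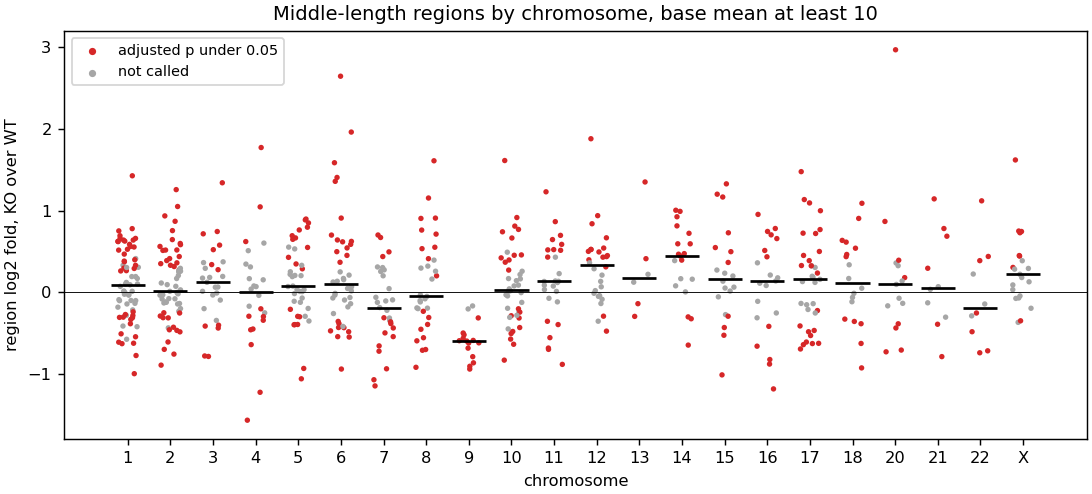
Log2 fold of each member with a base mean of at least 10 in KO versus WT (authors' deposited table) by chromosome; red points passed the authors' adjusted p of 0.05, grey points did not, and bars are medians. Chromosome 9 has its median at -0.59 and 0 points called higher.

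The lowest p-values among regions higher in addback than KO belonged to TRIM56, IFI6, SLFN5 and LY6E, and all 4 hosts were higher too. IFI6, an interferon-induced protein of the endoplasmic reticulum, had a region fold of 4.85 ± 0.41 in addback versus KO (adjusted p = 1.7e-30) in the authors' deposited table. IFI6 was at 526, 403 and 584 scaled CPM in addback, 8.07, 6.82 and 8.37 in KO, and 12.7, 11.7 and 11.6 in WT. Every addback library exceeded every other library, with a log2 fold of 6.01 ± 0.16 in addback versus KO (edgeR adjusted p = 4.4e-07) and 5.39 ± 0.15 in addback versus WT (adjusted p = 7.3e-07). TRIM56, a ubiquitin ligase of innate immunity, had a region fold of 1.41 ± 0.09 in addback versus KO (adjusted p = 2.0e-55) in the authors' deposited table. TRIM56 was at 66.9, 56.3 and 73.2 scaled CPM in addback, 28.4, 27.1 and 25.4 in KO, and 29.6, 36.1 and 29.4 in WT, and its log2 fold in addback versus KO was 1.28 ± 0.11 (edgeR adjusted p = 0.000404).

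SLFN5, an interferon-induced Schlafen family gene, and LY6E, an interferon-induced surface protein, followed. Their region folds were 2.17 ± 0.21 and 1.75 ± 0.21 in addback versus KO in the authors' deposited table (adjusted p = 1.6e-25 and 3.1e-19). Host folds from edgeR were 2.17 ± 0.23 for SLFN5 (adjusted p = 0.00109) and 0.89 ± 0.08 for LY6E (adjusted p = 0.000393). LY6E was at 83.9, 73.6 and 82.7 scaled CPM in addback, 44.8, 41.9 and 43.1 in KO, and 51.7, 47.7 and 42.5 in WT, and the addback libraries did not overlap the rest. LNPEP (an aminopeptidase), GDF7 (a growth factor of the bone morphogenetic protein family) and DRAXIN (an axon guidance protein) had region folds of 0.52 ± 0.07, 0.91 ± 0.13 and 1.24 ± 0.20 there. DRAXIN and GDF7 had at most 8.36 scaled CPM in any library.

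INTS1 and ELP2 have p-values among the 10 lowest of regions called lower in addback versus KO. INTS1, a scaffold subunit of the Integrator complex that cuts nascent noncoding and paused transcripts, had region folds of 0.44 ± 0.09 in KO versus WT (adjusted p = 1.7e-05) and -0.71 ± 0.10 in addback versus KO (adjusted p = 1.5e-12) in the authors' deposited tables. The gene was at 225, 220 and 208 scaled CPM in addback, 206, 217 and 207 in KO, and 298, 307 and 264 in WT. WT exceeded the other groups in every library (KO versus WT -0.46 ± 0.06, edgeR adjusted p = 0.000789), a value of -0.14 (adjusted p = 0.372) with libraries scaled on all genes. ELP2, a subunit of the tRNA-modifying Elongator complex, had region folds of 0.46 ± 0.07 and -0.46 ± 0.07 in the authors' deposited tables, beside host folds of 0.01 ± 0.07 (edgeR adjusted p = 0.905) and -0.08 ± 0.07 (adjusted p = 0.374). With libraries scaled on all genes the ELP2 host was called in both comparisons, at 0.34 (adjusted p = 0.0122) and -0.38 (adjusted p = 0.0076), so its contrast with the region depends on the scaling.

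Where a region ends at the next gene on the host's strand, that gene is the first annotated unit that a longer readthrough transcript would enter. The last 120 bases of 2 such regions are shown because the next gene passed the test in KO versus WT in 1 case and not in the other. They are from RefSeq (GRCh38.p14), written on the strand of the host, with AATAAA or ATTAAA to be in capitals where present; neither window holds one. Of 35116 RefSeq windows of this length before a gene start, 5.69% hold either hexamer on the gene's strand. That these letters are absent here says nothing about the factors that bind elsewhere in the region.
BRD9 region before ZDHHC11 (chr5:850987-851106, minus strand): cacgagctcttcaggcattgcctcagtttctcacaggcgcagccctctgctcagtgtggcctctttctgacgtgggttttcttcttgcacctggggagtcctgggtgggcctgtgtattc
SRSF1 region before VEZF1 (chr17:57988255-57988374, minus strand): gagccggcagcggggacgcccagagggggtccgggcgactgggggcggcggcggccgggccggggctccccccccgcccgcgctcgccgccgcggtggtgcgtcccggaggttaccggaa

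ZDHHC11 (chr5:795605-850986, minus strand) encodes an enzyme that attaches palmitate to proteins. It was at 32.6, 37.6 and 41.4 scaled CPM in addback, 53.6, 50.6 and 47.2 in KO, and 27.3, 30.8 and 25.3 in WT. No group overlapped another, with KO highest: the log2 fold was 0.86 ± 0.10 in KO versus WT (edgeR adjusted p = 0.000755) and -0.44 ± 0.10 in addback versus KO (adjusted p = 0.00662). A near-identical copy, ZDHHC11B, lies close by, and how the authors' counting divided reads between them is not given, so these levels are uncertain. VEZF1, a zinc finger transcription factor of vessel development, was at 97.4, 97.9 and 102 scaled CPM in addback, 91.4, 90.7 and 93.4 in KO, and 88.0, 90.5 and 89.3 in WT. Its log2 fold was 0.04 ± 0.03 in KO versus WT (edgeR adjusted p = 0.292), or 0.37 (adjusted p = 0.0072) with libraries scaled on all genes, which is close to the shift of 0.33 that this scaling gives the median gene. VEZF1 was called higher in addback versus KO at 0.11 ± 0.03 (edgeR adjusted p = 0.018), or -0.19 (adjusted p = 0.105) with libraries scaled on all genes. In addback versus WT it was called at 0.15 ± 0.03 (adjusted p = 0.0201).

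PKI55 (chr2:216216889-216220192, plus strand) begins where the XRCC5 region ends. It was at 13.9, 13.2 and 13.7 scaled CPM in addback, 39.8, 43.7 and 38.5 in KO, and 12.2, 12.2 and 13.5 in WT. Every KO library lay above every other library, with a log2 fold of 1.69 ± 0.08 in KO versus WT (edgeR adjusted p = 1.5e-05) and -1.58 ± 0.08 in addback versus KO (adjusted p = 1.7e-05). In addback versus WT the log2 fold was 0.11 ± 0.08 (adjusted p = 0.724). ZNF619, a zinc finger gene after the RPL14 region, was at 8.03, 12.2 and 11.9 scaled CPM in addback, 6.29, 6.31 and 6.42 in KO, and 6.21, 9.17 and 10.5 in WT. Its log2 fold in KO versus WT was -0.44 ± 0.26 (edgeR adjusted p = 0.166), while the region before it was called higher in the authors' deposited table.

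**Figure D5:**
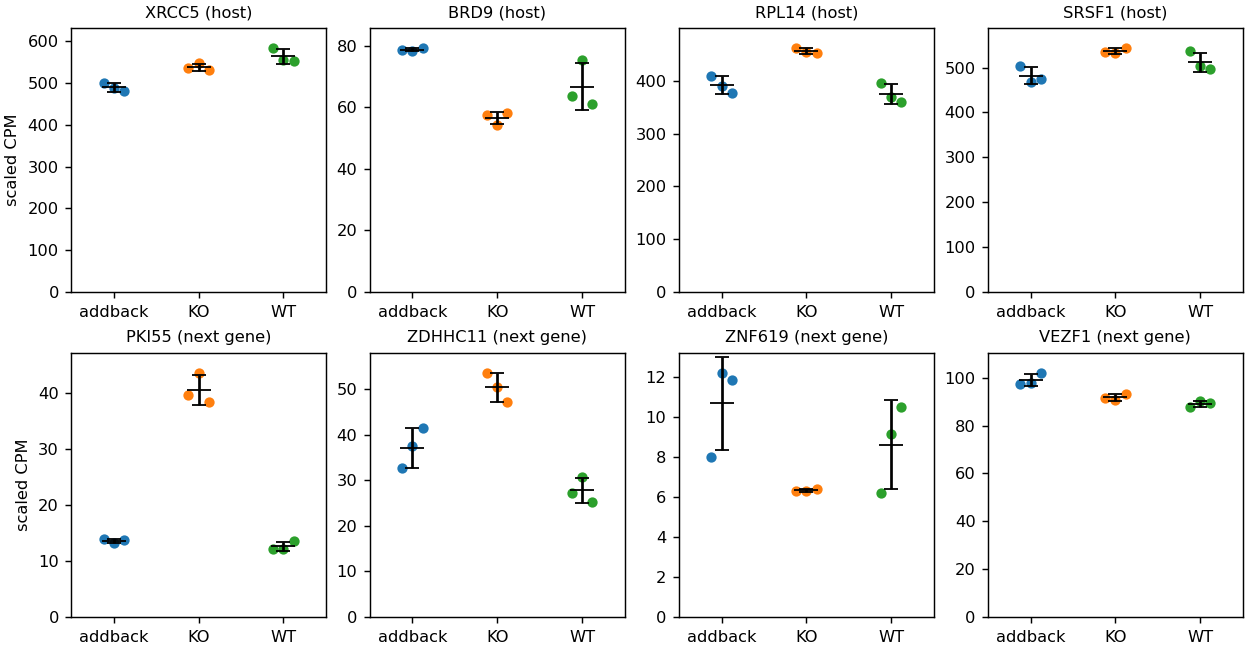
Scaled CPM in every library of 4 hosts (top) and of the gene that begins at the far end of each host's region (bottom), in addback, KO and WT; points are libraries, and bars are the mean with SD (n = 3). PKI55 and ZDHHC11 are highest in KO (38.5 to 43.7 and 47.2 to 53.6), while VEZF1 lies between 88.0 and 102 in all groups and is highest in addback.

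Counted together, 181 next genes are listed and 174 were tested. In KO versus WT 80 were called by edgeR, 21 higher and 59 lower, beside the background of 61.8% over all genes. Addback versus KO gave 80 calls, 58 higher and 22 lower (56.9%; 51 calls without addback 2), and in addback versus WT 27, 16 higher and 11 lower (9.17%). As for hosts, the first 2 splits follow the scaling. With factors from all genes, 50 next genes were higher and 23 lower in KO versus WT, and 25 higher and 43 lower in addback versus KO. Of the 74 low-background next genes, 18 were higher and 21 lower in KO versus WT (49.8%), and 19 higher and 18 lower in addback versus KO (38.2%). As for low-background hosts, near-even counts here follow largely from the scaling. The lowest p-values among higher next genes after PKI55 belonged to RBM3, DDX21, CYTH1 and SYF2. RBM3, a cold-inducible RNA-binding protein after the TBC1D25 region, was at 227, 217 and 214 scaled CPM in addback, 287, 293 and 283 in KO, and 193, 187 and 183 in WT, with no overlap between groups (KO versus WT 0.62 ± 0.03, edgeR adjusted p = 2.8e-05). Among lower next genes, 3 of the 5 with the lowest p-values lie on chromosome 9: FPGS, PHF2 and KIAA1958. FPGS, which adds glutamate tails to folate, was at 31.3, 33.1 and 30.3 scaled CPM in addback, 20.1, 19 and 20.5 in KO, and 41.5, 48.9 and 39.6 in WT (KO versus WT -1.13 ± 0.09, edgeR adjusted p = 0.000125). LGALS3BP, an interferon-responsive secreted protein after the CANT1 region, was at 790, 676 and 813 scaled CPM in addback, 292, 270 and 290 in KO, and 334, 306 and 294 in WT (addback versus KO 1.42 ± 0.08, edgeR adjusted p = 1.9e-05).

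The machinery of 3' end formation and termination was followed as 28 genes, all tested. In KO versus WT 15 were higher and 5 lower (median log2 fold 0.13, against -0.46 over all genes, of which 10.1% were called higher and 51.7% lower, or 25.1% and 24.7% of low-background genes), and in addback versus KO 3 were higher and 13 lower (median -0.10, against 0.45 over all genes, of which 49.2% were called higher and 7.69% lower, or 18% and 20.2% of low-background genes). In addback versus WT 2 were higher and 1 lower. With libraries scaled on all genes the counts were 22 higher and 0 lower, 0 higher and 22 lower, and 0 in either direction, in the same order. Summed levels were 3851 to 3938 scaled CPM in addback, 4271 to 4277 in KO and 3876 to 3949 in WT. CPSF3 itself was at 109, 111 and 113 scaled CPM in addback, 121, 118 and 118 in KO, and 104, 106 and 113 in WT. Its log2 fold in KO versus WT was 0.15 ± 0.04 (edgeR adjusted p = 0.00681; exact two-sided permutation p = 0.1, the smallest that 3 against 3 libraries allow). UBE3D was at 2753 to 3349 scaled CPM in addback, 13.2 to 15.8 in KO and 19.6 to 26.2 in WT, so the RNA of the edited gene was still counted in KO. The KO versus WT fold of UBE3D was -0.61 ± 0.13 (edgeR adjusted p = 0.00391), or -0.28 (adjusted p = 0.142) with libraries scaled on all genes.

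Total counts per library ran from 23088295 to 37508780. All 6 HEK293 markers had at least 1 scaled CPM in every library, with summed levels of 562 to 627 in addback, 365 to 466 in KO and 1094 to 1137 in WT. Markers of blood summed to 8.88 to 33.9 in addback, 1.48 to 2.38 in KO and 11.4 to 61.4 in WT, and those of endothelium to 14 to 56.1, 0.988 to 1.57 and 10.5 to 57.9 in the same groups. Fibroblast markers summed to 59.7 to 97.3 in addback, 44.5 to 52.6 in KO and 48.9 to 99.2 in WT, and breast epithelial markers to 201 to 215, 201 to 209 and 176 to 196. In the KO libraries 1 to 2 of the 4 fibroblast genes and 1 of the 4 breast epithelial genes were at 0, against none in addback or WT. Their part in the region values was not tested. At the length bounds, members and outsiders were named by length alone. ALG13 and NKX2-5 are just inside at 9000 bases, with log2 folds of 0.13 and 0.89 in KO versus WT in the authors' deposited table. EXOSC2 (8988 bases, -0.71) and TMEM30A (8995 bases, 0.01) are just outside. At the upper bound ATG10 (17925 bases, -1.52 at a base mean of 0.239) and EML4 (17958 bases, -0.46) are inside, and ZNF883 and ST8SIA5 (both 18000 bases, -2.25 and 0.47) outside, in the authors' deposited table.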

How the data were processed

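Poly(A)-selected RNA of 9 HEK293 libraries was measured. Per the submitters' processing notes, DESeq2, STAR 2.5.2b and cutadapt 1.8.1 were used, with hg38 as the build and no role stated. Not given in the sources used here are the counter, its annotation and the region finder. The authors deposited a table of counts for each gene in each library, beside gene lengths (other). The authors' deposited region tables give base means (signal), log2 folds and errors, test statistics (score), p-values and adjusted p-values, with lengths (other), and no values per library. In 100% of rows of the deposited KO versus WT table, and 5.47% of the addback versus KO table, the p follows from fold over error within 1%; folds of the addback table are shrunken.

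Counts were fitted with edgeR 4.0.16 (R 4.3.3): filterByExpr left 21994 of 26485 genes, and 1 robust quasi-likelihood fit over all 9 libraries gave every contrast, adjusted by Benjamini-Hochberg (threshold 0.05). TMM factors came from 7475 low-background genes, whose background, estimated from 547 tissue-restricted genes with a coding length, was at most 10% of their level. Their coding sequence made up at least 10% of their exons. The fit was checked on simulated counts. Over all tested genes, same-number residuals correlated at 0.89, 0.60 and 0.74 in addback versus WT, and between -0.05 and 0.02 in both KO comparisons. Low-background genes gave 0.57, 0.29 and 0.63, and between 0.01 and 0.19. The estimated background was lowest in replicate 1 of addback and of WT, and its part in these correlations was not tested. Replicate numbers of addback and WT thus appear paired. The main fit used group only, so its addback versus WT p-values leave this pairing out. A replicate block was an alternative, with 119 addback versus WT host calls against 98. Replicates differed by more than sampling noise (chi-square over its degrees of freedom 1.99 to 44.5).

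Coordinates are 1-based hg38, with hosts matched to GENCODE v29. Named members had the 10 lowest p-values per direction and comparison, or up to 10 calls of opposite sign. The 3' end and marker lists, members and named-gene rule were chosen with earlier results of these data known. Genes inside regions were to be counted, but 0 lie there; genes at the far end were counted instead, a choice made after seeing the data. DESeq2 1.42.0, other scalings, filters and left-out libraries were alternatives.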

Additional observations from a re-analysis of the deposited data

How the results depend on the processing

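In the authors' deposited tables, limiting calls to log2 folds of at least 1 left 36 members in KO versus WT (29 higher) and 9 in addback versus KO (5 higher). Limiting them to low-background hosts, chosen after seeing the data, left 205 (145 higher) and 118 (28 higher); the other limits on length, name, base mean, coding bases, p and chromosome 9 kept both counts within 1.5 times. Host calls fell to 186 in KO versus WT and 144 in addback versus KO among low-background hosts, and at an adjusted p of 0.01 to 197, 143 and, in addback versus WT, 41. Addback versus WT had 25 host calls with TMM factors from all genes and 162 with DESeq2. Next-gene calls fell to 39 and 37 among low-background genes, and 48 and 34 at 0.01, in KO versus WT and addback versus KO. Low-background and stricter counts are smaller by construction; the cause of the other shifts was not tested. The direction of host calls turned with the scaling: upper quartile factors gave 169 higher and 173 lower hosts in KO versus WT, and 129 higher and 177 lower in addback versus KO. Next-gene directions turned with all-gene TMM factors, to 50 higher and 23 lower in KO versus WT and 25 higher and 43 lower in addback versus KO. Leaving out 1 library gave 249 to 363, 181 to 323 and 52 to 97 host calls in KO versus WT, addback versus KO and addback versus WT, and 57 to 95 and 51 to 90 next-gene calls in the first 2 of these. The lowest were without KO 2 for addback versus KO hosts (181), without addback 2 for addback versus WT hosts (52; 65 without addback 1) and without addback 2 for addback versus KO next genes (51). With all-gene TMM factors the sign turned for SOX4 (0.090), GTF3C4 (0.10) and BRD9 (0.090) in KO versus WT, and for EEF1A2 (-0.047), CYTH1 (-0.16), SNX14 (-0.10), CELSR2 (-0.049) and VEZF1 (-0.19) in addback versus KO, where VEZF1 was also at -0.016 with upper quartile factors. All-gene TMM factors also made calls of the SRSF1 host (0.39) and of the ELP2 and TXNL1 hosts (both 0.34) in KO versus WT. With the replicate block, host calls were 119 in addback versus WT, 384 in KO versus WT and 326 in addback versus KO, and next-gene calls 96 and 93; among named genes it moved 1 call, HIST1H2BE in KO versus WT, past the threshold. Genes inside the regions could not be counted, since 0 lie there. The region tables give standard errors but no values per library, and base means under 1 cannot show a difference at this depth.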
